A study of Rattus norvegicus with 4 samples.

Results

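Mitochondrial fusion, fission and mitophagy were followed through 10 genes in rat insulin-secreting cells grown as a monolayer or 3D-bioprinted into a hydrogel. The genes were picked by name from their known roles, with earlier results of these data known. Mfn1, Mfn2 and Opa1 stood for fusion, Dnm1l, Fis1 and Mff for fission, and Pink1, Bnip3, Bnip3l and Fundc1 for mitophagy. They were 10 of 23360 gene symbols, and all 10 were among the 11960 genes that passed a filter of a mean TPM of 1 or more. TPM (transcripts per 1000000) is a read share corrected for transcript length, so that levels can be compared between genes, and the values of all transcripts of a gene were summed. The samples were 2 monolayer cultures and 2 cultures bioprinted in GelXA LAMININK 411, a gelatin methacrylate hydrogel blended with laminin-411. All 4 held INS-1 832/3, a single clone of rat insulinoma origin that was selected for glucose-responsive insulin secretion. Both culture forms were kept in the same RPMI-1640 medium, and RNA was taken after 5 days from biological replicates at passage 3. The polyadenylated RNA was read as stranded libraries of 75 bp single-end reads.

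Mitochondria form a network that is joined by fusion and divided by fission. Large GTPases do both: mitofusins fuse the outer membrane, OPA1 fuses the inner membrane, and DRP1, the product of Dnm1l, constricts the organelle once adaptors such as MFF and FIS1 have placed it there. Mitophagy removes damaged or surplus mitochondria, either through the kinase PINK1, which marks depolarized organelles with phosphorylated ubiquitin, or through receptors in the outer membrane that bind the autophagosome directly. In beta cells the network couples glucose metabolism to insulin release, since mitochondrial ATP closes the potassium channels that trigger secretion.

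The cells carried the markers of their labelled type. The 11 beta cell markers summed to between 147619 and 170437 TPM per sample, and of these Slc2a2, the glucose transporter gene, rose and the insulin gene Ins2 fell. Glucagon, the alpha cell hormone encoded by Gcg, was listed at 41.9 and 73.8 TPM in the monolayers and at 124 and 155 TPM in the bioprinted cultures, and rose by a log2 fold change of 1.26 (limma, Benjamini-Hochberg adjusted p = 0.0217, or 0.0958 and 0.117 without bioprinted replicate 1 or 2). Markers of other cells stayed low: the 6 endothelial markers in the files summed to between 17.0 and 20.2 TPM with Cdh5, Tie1 and Cldn5 at 0, the 6 fibroblast markers to between 1.89 and 2.35 TPM with Dcn, Lum and Pdgfrb at 0, and the 5 leukocyte markers to between 0.577 and 1.54 TPM with Ptprc at 0. The part that the glucagon-expressing fraction plays in the values below was not tested. In bulk RNA, fewer cells of a type and less RNA per cell cannot be told apart. TPM sum to 1000000 in every sample and hold no depth, and between 19355 and 19959 transcripts had a value above 0.

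Of the 10 genes, Bnip3 and Opa1 rose in the bioprinted cultures and none fell. That is 2 of 10 called, where 38.0% of all genes tested were called, 18.5% as higher and 19.5% as lower (limma on log2(TPM + 1), Benjamini-Hochberg adjusted p below 0.05). The remaining 8 did not pass, and 3 of the 10 had an unadjusted p below 0.05 against 50.6% of genes tested. On the log2 scale 8 genes had a positive and 2 a negative difference, and the median was 0.13 against -0.003 for all genes tested. The median absolute log2 fold change of the 10 was 0.14 against 0.22 for all genes tested, and 0 of the 10 exceeded 0.5, which 14.6% of genes tested did. The deposited TPM of the groups did not overlap for 7 of the 10, against 74.2% of genes tested. These counts rested on both bioprinted cultures: with bioprinted replicate 1 left out, 136 genes were called, none of them among the 10, and with bioprinted replicate 2 left out, 1037 genes were called, again none of them among the 10.

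The levels, in TPM, spanned more than an order of magnitude and kept nearly the same order in both culture forms. In the monolayers the means ran from Fis1 at 298 TPM through Bnip3 at 66.2, Dnm1l at 47.8, Mff at 41.5, Mfn2 at 38.4, Mfn1 at 35.7, Opa1 at 28.2, Fundc1 at 13.5 and Bnip3l at 11.8 to Pink1 at 10.8 TPM. Of neighbours in that order, only Dnm1l and Mff had overlapping values. In the bioprinted cultures the order was the same down to Opa1, and then Bnip3l at 13.2, Fundc1 at 12.6 and Pink1 at 11.8 TPM followed, with overlapping values for Fundc1 and Pink1 and with Bnip3l and Fundc1 meeting at 12.9 TPM. Fis1 made up 48.6% and 52.1% of the summed TPM of the 10 genes in the monolayers and 45.6% and 43.0% in the bioprinted cultures.

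**Figure D1:**
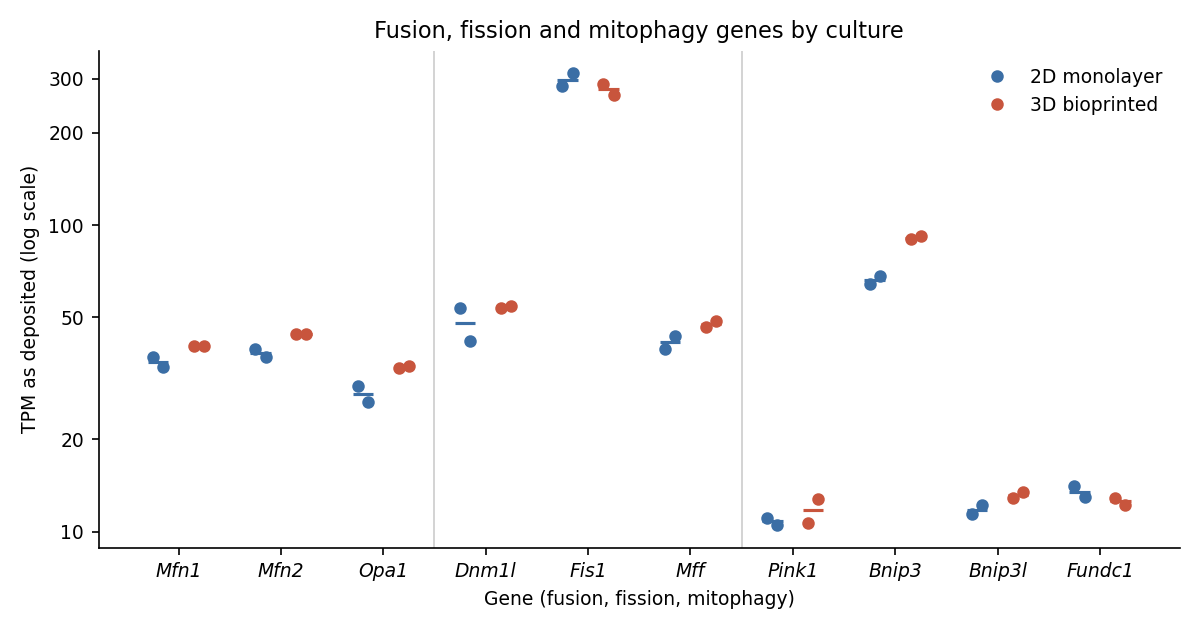
Level of each of the 10 genes in TPM on a log axis, with 1 point per sample and a short line at the group mean. The bioprinted points of Bnip3, at 90.3 and 92.0 TPM, and of Opa1, at 34.1 and 34.8 TPM, lie above both of their monolayer points.

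Among the fusion genes, Opa1, which encodes the inner membrane GTPase that also holds cristae junctions closed, was listed at 29.9 and 26.6 TPM in the monolayers and at 34.1 and 34.8 TPM in the bioprinted cultures. Both bioprinted values lay above both monolayer values, and the means were 28.2 ± 2.34 and 34.5 ± 0.490 TPM (SD, n = 2 each). Opa1 rose by a log2 fold change of 0.24 (SE 0.062, 95% confidence interval 0.08 to 0.39, limma adjusted p = 0.0319), which is 18.0% on the log2(TPM + 1) scale. Of all genes tested, 46.6% had a larger absolute log2 fold change. The call was kept in 7 of 11 alternative settings, with adjusted p between 0.0259 and 0.169 over the 11. It was lost without monolayer replicate 2 (adjusted p = 0.0761), without bioprinted replicate 1 (0.169), without bioprinted replicate 2 (0.158) and without the intensity trend (0.051).

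The mitofusins had positive differences that did not pass the test. Mfn2, the outer membrane mitofusin that also tethers mitochondria to the endoplasmic reticulum, was at 39.4 and 37.3 TPM in the monolayers and at 44.1 and 44.2 TPM in the bioprinted cultures. The groups did not overlap and the log2 difference was 0.16 (95% confidence interval 0.02 to 0.29, limma adjusted p = 0.0689, unadjusted p = 0.0305). Mfn1, its partner in outer membrane docking, was at 37.1 and 34.4 TPM in the monolayers and at 40.4 TPM in both bioprinted cultures. The groups again did not overlap, with a log2 difference of 0.13 (95% confidence interval -0.009 to 0.27, limma adjusted p = 0.115). The ratio of Mfn2 to Mfn1 TPM within a sample was 1.06 and 1.09 in the monolayers and 1.09 in both bioprinted cultures. The summed TPM of the 3 fusion genes was 106 and 98.3 in the monolayers and 119 in both bioprinted cultures.

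None of the 3 fission genes passed the test at the level of the gene. Dnm1l was at 53.8 and 41.9 TPM in the monolayers and at 53.6 and 54.4 TPM in the bioprinted cultures. Monolayer replicate 1 lay within the bioprinted range and replicate 2 well below it, and the log2 difference was 0.14 (95% confidence interval -0.11 to 0.39, limma adjusted p = 0.304). A single monolayer culture decided this value: without monolayer replicate 1 the log2 difference was 0.28 (adjusted p = 0.0263), and without monolayer replicate 2 it was -0.005 (adjusted p = 0.954). Over the 11 alternatives the adjusted p ran from 0.0263 to 0.954.

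Mff, the main outer membrane receptor for DRP1, was at 39.5 and 43.6 TPM in the monolayers and at 46.6 and 48.8 TPM in the bioprinted cultures. The groups did not overlap, and the log2 difference was 0.16 (95% confidence interval -0.05 to 0.36, limma adjusted p = 0.188). Without monolayer replicate 2 it was 0.26 (adjusted p = 0.0423), the only call among 11 alternatives with adjusted p between 0.0423 and 0.54. Fis1, a tail-anchored outer membrane adaptor, was at 284 and 313 TPM in the monolayers and at 290 and 266 TPM in the bioprinted cultures. The groups overlapped, and the log2 difference was -0.14 (95% confidence interval -0.38 to 0.09, limma adjusted p = 0.253). The summed TPM of the 3 fission genes was 377 and 398 in the monolayers and 390 and 369 in the bioprinted cultures.

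Among the mitophagy genes, Bnip3 had the largest difference of the 10. It encodes a BH3-type receptor of the outer membrane that binds LC3-family proteins and is a textbook target of the hypoxia-inducible factors (HIF). Its level was 64.2 and 68.1 TPM in the monolayers and 90.3 and 92.0 TPM in the bioprinted cultures. Both bioprinted values lay above both monolayer values, and the means were 66.2 ± 2.75 and 91.1 ± 1.2 TPM (SD, n = 2 each). Bnip3 rose by a log2 fold change of 0.41 (SE 0.069, 95% confidence interval 0.24 to 0.59, limma adjusted p = 0.0105), or 33.2%. Of all genes tested, 22.0% had a larger absolute log2 fold change. The call was kept in 9 of 11 alternative settings, with adjusted p between 0.00476 and 0.0903. It was lost without bioprinted replicate 1 (log2 fold change 0.42, adjusted p = 0.0903) and without bioprinted replicate 2 (0.41, adjusted p = 0.0733).

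The 250 bases upstream of the start of Bnip3 and Opa1 are shown because these genes rose, and those of Pink1 because they also hold ACGTG, though not GCGTG, while Pink1 did not pass the test. The sequences are from RefSeq on the GRCr8 rat assembly, which differs from the assembly named for the deposited values, and each is written 5′ to 3′ on the strand of its gene. Capitals mark the HIF core letters ACGTG and GCGTG on either strand, and, where ACGTG falls on both strands at once, the E-box CACGTG.
Bnip3 (chr1:203154963-203155212, minus strand): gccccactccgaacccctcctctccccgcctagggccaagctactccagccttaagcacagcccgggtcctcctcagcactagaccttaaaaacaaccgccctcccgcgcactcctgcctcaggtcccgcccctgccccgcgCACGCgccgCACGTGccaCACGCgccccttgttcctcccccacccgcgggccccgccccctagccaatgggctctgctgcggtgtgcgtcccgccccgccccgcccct
Opa1 (chr11:84689901-84690150, minus strand): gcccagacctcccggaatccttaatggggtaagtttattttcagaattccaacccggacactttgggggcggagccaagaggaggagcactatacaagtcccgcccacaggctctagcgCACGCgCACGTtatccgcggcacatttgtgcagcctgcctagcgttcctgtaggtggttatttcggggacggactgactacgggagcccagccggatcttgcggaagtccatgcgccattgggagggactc
Pink1 (chr5:155825951-155826200, minus strand): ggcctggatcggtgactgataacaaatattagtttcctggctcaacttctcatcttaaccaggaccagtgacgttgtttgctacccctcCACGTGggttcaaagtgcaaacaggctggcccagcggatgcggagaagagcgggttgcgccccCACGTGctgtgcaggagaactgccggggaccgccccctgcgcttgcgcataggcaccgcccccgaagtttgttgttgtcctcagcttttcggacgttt
In the Bnip3 window a CACGTG began at position -99, counted from the start site, and lay between GCGTG matches that began at -108 and -90. The Opa1 window held GCGTG at -131 and ACGTG at -125, and the Pink1 window held CACGTG at -161 and at -98. Of 33469 rat windows of the same length, 36.7% held ACGTG or GCGTG, 16.6% held ACGTG, 25.9% held GCGTG and 5.59% held CACGTG, which contains ACGTG on both strands. Windows were found for 7 of the 10 genes. Mff held a GCGTG at -42, and Mfn1, Dnm1l and Fis1 held neither form. A letter match is a description and not a binding site.

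The other mitophagy receptors did not pass the test. Bnip3l, the NIX receptor that clears mitochondria from maturing red cells, was at 11.4 and 12.2 TPM in the monolayers and at 12.9 and 13.5 TPM in the bioprinted cultures. The groups did not overlap, and the log2 difference was 0.11 (95% confidence interval -0.09 to 0.32, limma adjusted p = 0.317). Fundc1, an outer membrane receptor that responds to low oxygen through its phosphorylation, was at 14.1 and 13.0 TPM in the monolayers and at 12.9 and 12.2 TPM in the bioprinted cultures. Here both bioprinted values lay below both monolayer values, with a log2 difference of -0.14 (95% confidence interval -0.31 to 0.04, limma adjusted p = 0.166). Pink1 was at 11.1 and 10.5 TPM in the monolayers and at 10.7 and 12.8 TPM in the bioprinted cultures. The groups overlapped, and the log2 difference was 0.07 (95% confidence interval -0.16 to 0.30, limma adjusted p = 0.571), or -0.03 without bioprinted replicate 2.

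**Figure D2:**
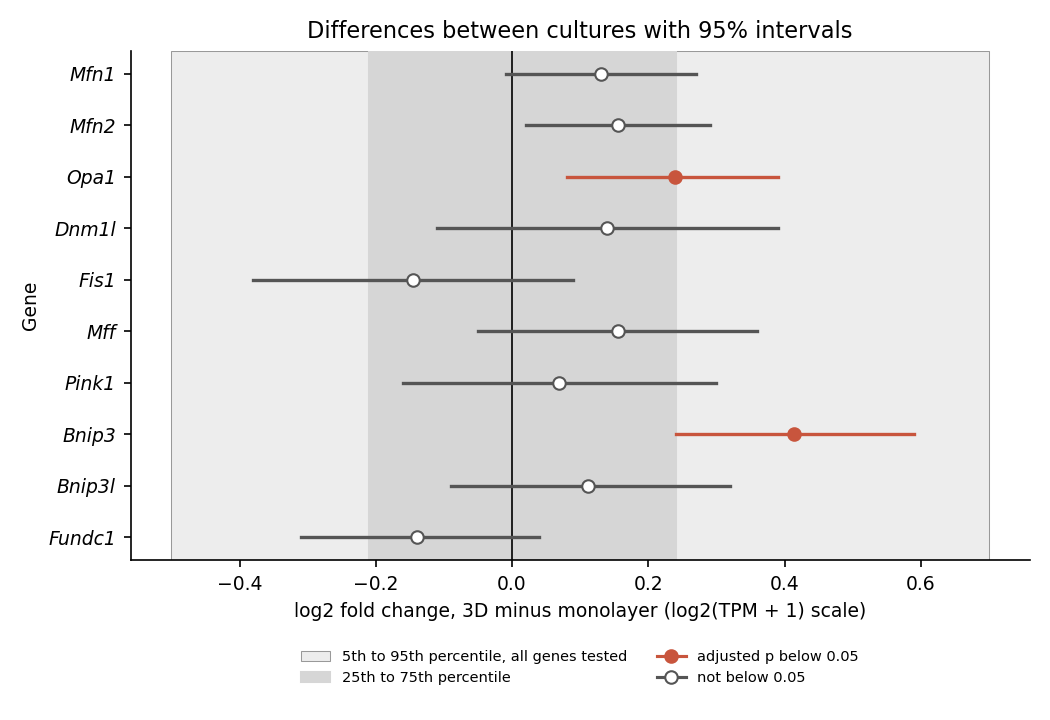
Difference of each gene between the culture forms as a log2 fold change of TPM + 1 with its 95% confidence interval, 3D minus monolayer, over bands that mark the percentiles of all 11960 genes tested. The intervals of Opa1 (0.08 to 0.39), Bnip3 (0.24 to 0.59) and Mfn2 (0.02 to 0.29) lie above 0, and all 10 points lie inside the 5th to 95th percentile band of -0.50 to 0.70.

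Ratios within a sample do not depend on the scaling between samples. The ratio of Bnip3 to Bnip3l TPM was 5.64 and 5.57 in the monolayers and 6.99 and 6.80 in the bioprinted cultures. Both bioprinted ratios were higher, with a mean log2 difference of 0.30. The ratio of summed fission to summed fusion TPM was 3.55 and 4.05 in the monolayers and 3.29 and 3.09 in the bioprinted cultures. Both bioprinted ratios were lower, with a mean log2 difference of -0.25, or -0.15 without monolayer replicate 2 and -0.14 when only the most abundant transcript of each gene was counted. With Fis1 left out of the sum the ratio was 0.877 and 0.869 in the monolayers and 0.845 and 0.865 in the bioprinted cultures. The ratio of the summed receptors Bnip3, Bnip3l and Fundc1 to Pink1 was 8.11 and 8.86 in the monolayers and 10.8 and 9.21 in the bioprinted cultures. Its mean log2 difference was 0.24, or 0.12 without bioprinted replicate 1 and 0.35 without bioprinted replicate 2. Bnip3 made up most of the receptor sum, with 64.2 of 89.7 and 68.1 of 93.4 TPM in the monolayers. In the bioprinted cultures it held 90.3 of 116 and 92.0 of 118 TPM. Bnip3l and Fundc1 had log2 differences of 0.11 and -0.14, and neither passed the test. For each of the 4 ratios, Mfn2 to Mfn1 included, a two-sided exact permutation test gave p = 0.333, the smallest that 2 samples against 2 can give.

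Read by transcript, the 10 genes had 20 listed transcripts, of which 18 passed the filter and 3 were called, where 23.1% of the 15020 transcripts tested were called. The division of a gene's reads among its transcripts is an estimate of the quantification. For Bnip3, transcript ENSRNOT00000023477.6 carried between 96.5% and 100% of the TPM and rose by a log2 fold change of 0.44 (limma adjusted p = 0.0197). The other Bnip3 transcript was at 2.38 TPM in monolayer replicate 2 and at 0 elsewhere. For Opa1, transcript ENSRNOT00000002343.7 carried the whole level, and its log2 difference of 0.24 did not pass among transcripts (adjusted p = 0.0545).

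For Dnm1l and Mff, a minor transcript was called while the gene was not. The Dnm1l transcript ENSRNOT00000002478.7 was at 2.65 and 2.10 TPM in the monolayers and at 5.00 and 4.72 TPM in the bioprinted cultures. Both bioprinted values were higher, its share of the Dnm1l TPM was 4.93% and 5.01% against 9.34% and 8.69%, and it rose by a log2 fold change of 0.77 (limma adjusted p = 0.0248). The other Dnm1l transcripts, each with between 41.0% and 51.9% of the level, had overlapping groups and log2 differences of 0.05 and 0.10 (adjusted p = 0.738 and 0.608). The call of the minor transcript was lost without the filter (adjusted p = 0.0526), without monolayer replicate 2 (0.0735) and without either bioprinted replicate (0.169 and 0.127). The Mff transcript ENSRNOT00000089142.1 was at 1.10 and 1.80 TPM in the monolayers and at 5.24 and 3.44 TPM in the bioprinted cultures. Its share of the Mff TPM was 2.80% and 4.13% against 11.2% and 7.05%, and it rose by a log2 fold change of 1.08 (limma adjusted p = 0.0471). That call was lost whichever culture was left out, with adjusted p between 0.0836 and 0.209, and also without the filter (0.0918), without the intensity trend (0.0623) and with the replicate block (0.067). The Mff transcript ENSRNOT00000020705.5 was at 12.1 and 12.9 TPM in the monolayers and at 9.92 and 10.4 TPM in the bioprinted cultures. It held 30.7% and 29.5% of the Mff TPM against 21.3% in both bioprinted cultures, and its log2 difference of -0.31 did not pass (adjusted p = 0.0599). The most abundant Mff transcript, ENSRNOT00000077859.1, had a log2 difference of 0.22 (adjusted p = 0.163).

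**Figure D3:**
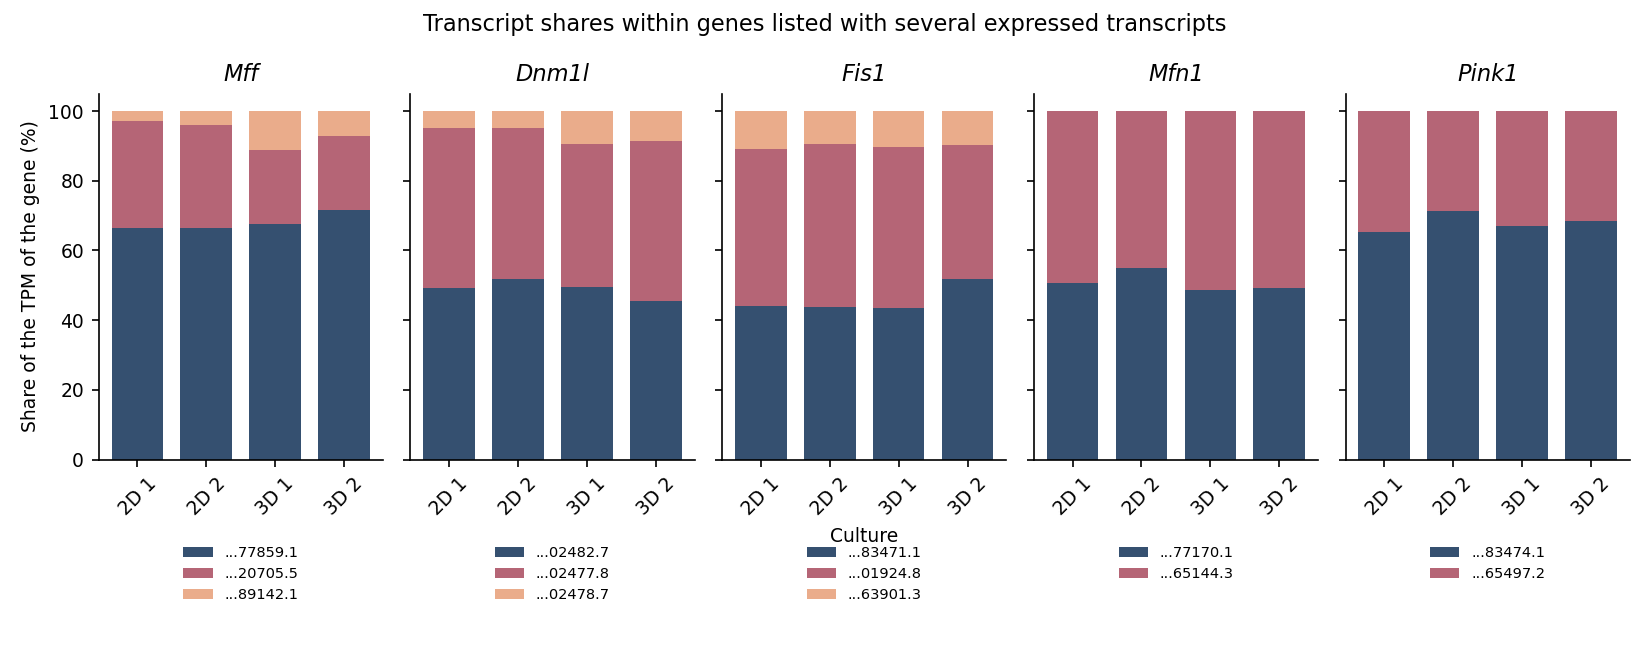
Share of the summed TPM of Mff, Dnm1l, Fis1, Mfn1 and Pink1 held by each of their transcripts, in percent, with 1 stacked bar per sample (2D for monolayer, 3D for bioprinted) and transcripts named by the end of their identifiers. The minor Dnm1l transcript takes 4.93% and 5.01% in the monolayers and 9.34% and 8.69% in the bioprinted cultures, and the minor Mff transcript 2.80% and 4.13% against 11.2% and 7.05%.

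The genes around these 10 were read from 10 lists chosen by function, again with earlier results of these data known. Of 119 listed genes, 108 were tested. Of these, 16 rose and 21 fell, which is 34.3% called against 38.0% of all genes tested, and their median log2 fold change was -0.007 against -0.003. Among 12 tested regulators of fusion and OPA1 processing, 1 rose and 3 fell, with a median of -0.06. That is 33.3% called against 38.0% of all genes tested, and the calls rested on both bioprinted cultures. Those that fell were Stoml2, which stabilizes mitofusin complexes (log2 fold change -0.34, adjusted p = 0.0164), Phb, a prohibitin of the inner membrane (-0.34, adjusted p = 0.0115), and Mtch2 (-0.19, adjusted p = 0.0396), whose call was lost in 7 of the 11 alternatives (adjusted p up to 0.223). The gene that rose was Miga1 (0.33, adjusted p = 0.0478), whose call was lost in 6 of the 11 alternatives (adjusted p up to 0.246). Oma1, the stress protease that cleaves OPA1, had a log2 difference of -0.12 (adjusted p = 0.442), and the prohibitin gene Phb2 likewise -0.12 (adjusted p = 0.113).

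Among 12 tested fission adaptors and regulators, 3 rose and 0 fell, with a median of 0.08. The called share of this list was below the 38.0% of all genes tested. Of all genes tested, 18.5% were called as higher and 19.5% as lower. The DRP1 receptors Mief1 and Mief2 rose by log2 fold changes of 0.30 and 0.32 (limma adjusted p = 0.0202 and 0.0153), and Spire1, which builds actin at division sites, rose by 0.36 (adjusted p = 0.0151). Mief1 was at 16.6 and 14.9 TPM in the monolayers and at 20.2 TPM in both bioprinted cultures, and Mief2 at 13.7 and 13.4 TPM against 17.8 and 17.6 TPM. The groups did not overlap for either. All 3 calls of this list were lost without bioprinted replicate 1, as they were without bioprinted replicate 2. The abundant members Pgam5, a mitochondrial phosphatase, and Marchf5, a ubiquitin ligase of the outer membrane, had log2 differences of 0.06 and 0.10 (adjusted p = 0.45 and 0.304).

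In the list of PINK1 pathway genes 1 of 12 tested genes rose and 4 fell, with a median of -0.03. That is 41.7% called in either direction, where 38.0% of all genes tested were called, 18.5% as higher and 19.5% as lower. The calls rested on both bioprinted cultures. The gene that rose was Usp35, a deubiquitinase (log2 fold change 0.44, limma adjusted p = 0.0102). Those that fell included Vcp, the segregase that pulls ubiquitinated proteins from the membrane (-0.33, adjusted p = 0.0103), Tomm7 (-0.34, adjusted p = 0.0136) and Htra2 (-0.24, adjusted p = 0.0351), while the ubiquitin gene Ubb had a log2 difference of -0.16 (adjusted p = 0.13). The Htra2 call was also lost without scaling between samples (limma adjusted p = 0.0507), without the filter (0.0549) and without the intensity trend (0.0568). Vcp and ubiquitin serve many pathways besides mitophagy. None of the 8 other mitophagy receptors and regulators was called by limma, against 38.0% of all genes tested, and none had an unadjusted p below 0.05. The lowest was that of Nipsnap2, a matrix protein shown on damaged mitochondria, with a log2 difference of 0.12 (unadjusted p = 0.0638, adjusted p = 0.118). Nipsnap1 and the receptor gene Fkbp8 both had log2 differences of -0.12 (adjusted p = 0.133 and 0.247), and the kinase gene Csnk2a1 0.05 (adjusted p = 0.637). Of 10 autophagy adaptors and ATG8 family genes, 1 fell, Gabarapl1 (-0.26, limma adjusted p = 0.0191). That is 10.0% called against 38.0% of all genes tested, and the call rested on both bioprinted cultures. The cargo adaptors Optn and Sqstm1 had log2 differences of 0.11 and -0.05 (adjusted p = 0.217 and 0.44). The ATG8 family genes Map1lc3b and Gabarap had log2 differences of 0.18 and -0.08 (adjusted p = 0.0993 and 0.389). Of 7 mitochondrial transport genes none was called, and 1, the Miro gene Rhot1, had an unadjusted p below 0.05 (log2 difference -0.21, unadjusted p = 0.0305, adjusted p = 0.0688). The other named transport genes, Kif1b, Armcx3 and Kif5b, had log2 differences of 0.13, 0.08 and -0.01 (adjusted p = 0.212, 0.296 and 0.911).

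Genes of the MICOS complex and its partners, which shape the cristae that OPA1 keeps narrow, were mostly lower. Of 11 tested, 8 fell and 0 rose, with a median log2 fold change of -0.25, or -0.21 without scaling between samples. That is 72.7% called, all of them lower, where 38.0% of all genes tested were called and 19.5% were called as lower. Micos10 was at 353 and 358 TPM in the monolayers and at 249 and 256 TPM in the bioprinted cultures, and fell by 0.53 on the log2 scale (limma adjusted p = 0.00483). Immt, the core scaffold mitofilin, was at 87.2 and 81.8 TPM in the monolayers and at 72.5 and 73.7 TPM in the bioprinted cultures, with a log2 fold change of -0.25 (adjusted p = 0.0172). Micos13 likewise fell by 0.27 on the log2 scale (adjusted p = 0.0203). For these 3 genes no bioprinted value reached a monolayer value. The count of 8 was 6 without scaling between samples, 4 without monolayer replicate 2, 1 without bioprinted replicate 2 and 0 without bioprinted replicate 1. Of 10 genes taken as measures of mitochondrial content, 1 rose and 4 fell, with a median of -0.15, which is 5 of 10 called against 38.0% of all genes tested. None of the 10 was called without bioprinted replicate 1, nor without bioprinted replicate 2. Among them Hspd1, a matrix chaperonin, fell by 0.40 on the log2 scale (adjusted p = 0.00695) and the outer membrane channel gene Vdac3 by 0.37 (adjusted p = 0.0106), while Vdac1 was at 291 and 302 TPM against 329 and 313 TPM (0.07, adjusted p = 0.466). Tomm22 and Polg also fell, and the chaperone gene Hspa9 rose by 0.31 (adjusted p = 0.0134).

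Beside the rise of Bnip3, 6 of 16 tested HIF target genes rose and 1 fell, with a median log2 fold change of 0.23. That is 43.8% called in either direction, where 38.0% of all genes tested were called, 18.5% as higher and 19.5% as lower. The largest members of that group were Pfkfb3, a regulator of glycolysis (1.84, limma adjusted p = 0.00141), and Bhlhe40, a transcriptional repressor (1.86, adjusted p = 0.00141). Vegfa, the vascular growth factor, rose by 0.59 (adjusted p = 0.00793), and the glycolytic gene Pgk1 had a log2 difference of 0.22 (adjusted p = 0.0581). The gene that fell was Ndrg1 (-0.47, adjusted p = 0.0062). Without bioprinted replicate 1 the count was 3 higher and 0 lower. Of 10 transcription factors known to act on genes of this kind, 4 rose and 0 fell. That is 40.0% called, all of them higher, where 38.0% of all genes tested were called and 18.5% were called as higher. Epas1, which encodes an alpha subunit of HIF, was at 18.2 TPM in both monolayers and at 28.4 and 27.6 TPM in the bioprinted cultures (log2 fold change 0.55, limma adjusted p = 0.00527). Hif1a, for another alpha subunit, was at 14.5 and 12.0 TPM in the monolayers and at 13.6 and 13.9 TPM in the bioprinted cultures. Its log2 difference of 0.01 did not pass (adjusted p = 0.9). Ppargc1a, a coactivator of mitochondrial biogenesis, was at 1.02 and 0.714 TPM in the monolayers and at 3.54 and 2.94 TPM in the bioprinted cultures. Its log2 fold change was 1.16 (limma adjusted p = 0.00568). The monolayer mean of Ppargc1a, 0.866 TPM, lay below the filter. The gene entered the fit through its mean over all samples, 2.05 TPM, which the bioprinted cultures raised. Under the alternative with a higher minimum mean TPM, Ppargc1a was not tested. The others that rose were Foxo1 (0.60, adjusted p = 0.00748) and Tfe3 (0.23, adjusted p = 0.046), and the call of Tfe3 was lost in 7 of the 11 alternatives (adjusted p up to 0.222). Gabpa, which acts on genes of oxidative phosphorylation, had a log2 difference of 0.09 (adjusted p = 0.483). Without bioprinted replicate 1 none of the 10 factors was called. The part of these factors in the level of Bnip3 was not tested.

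**Figure D4:**
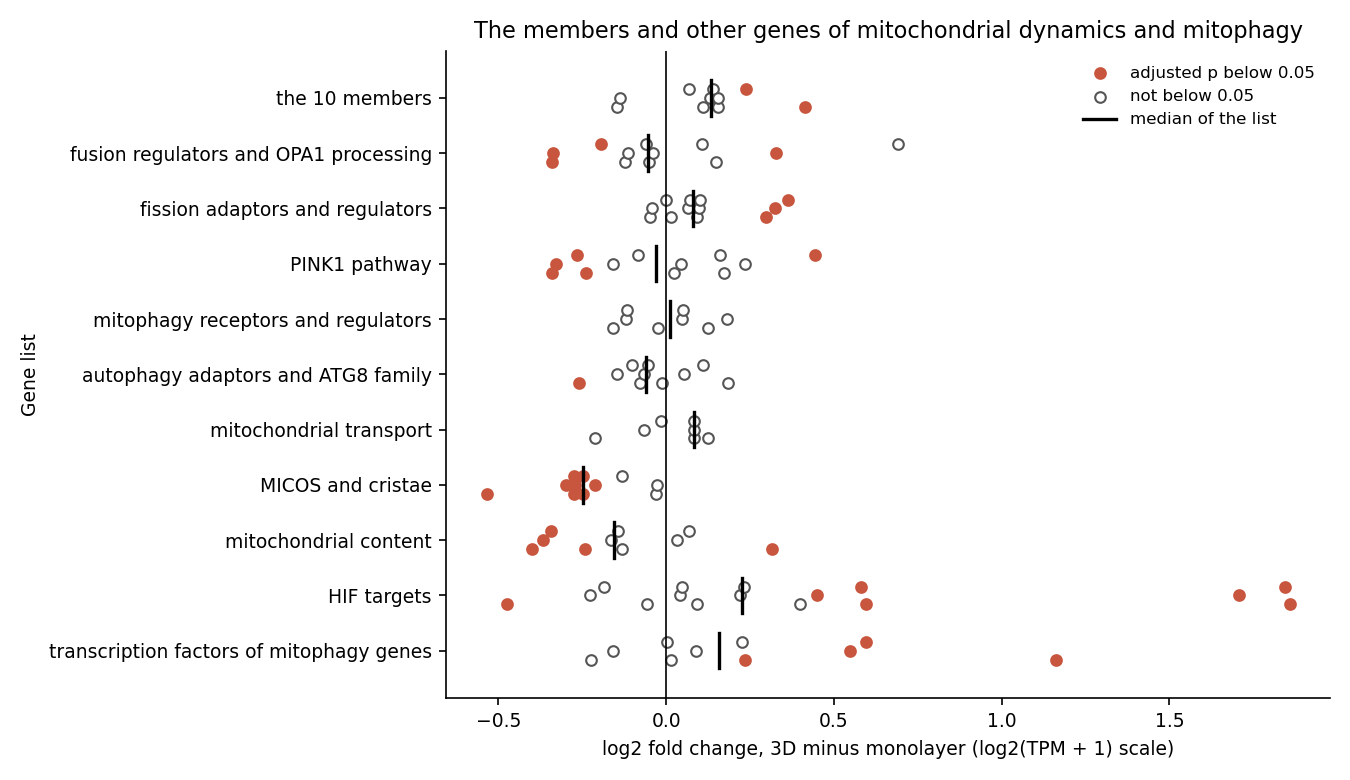
Log2 fold change of TPM + 1, 3D minus monolayer, of the 10 genes and of every tested gene in each of the 10 lists, with 1 point per gene, filled where limma's adjusted p was below 0.05, and a line at the list's median. The MICOS points all lie below 0, with a median of -0.25 (without scaling between samples 2 of 11 lay above 0), and the HIF targets spread furthest to the right, up to 1.86.

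**Figure D5:**
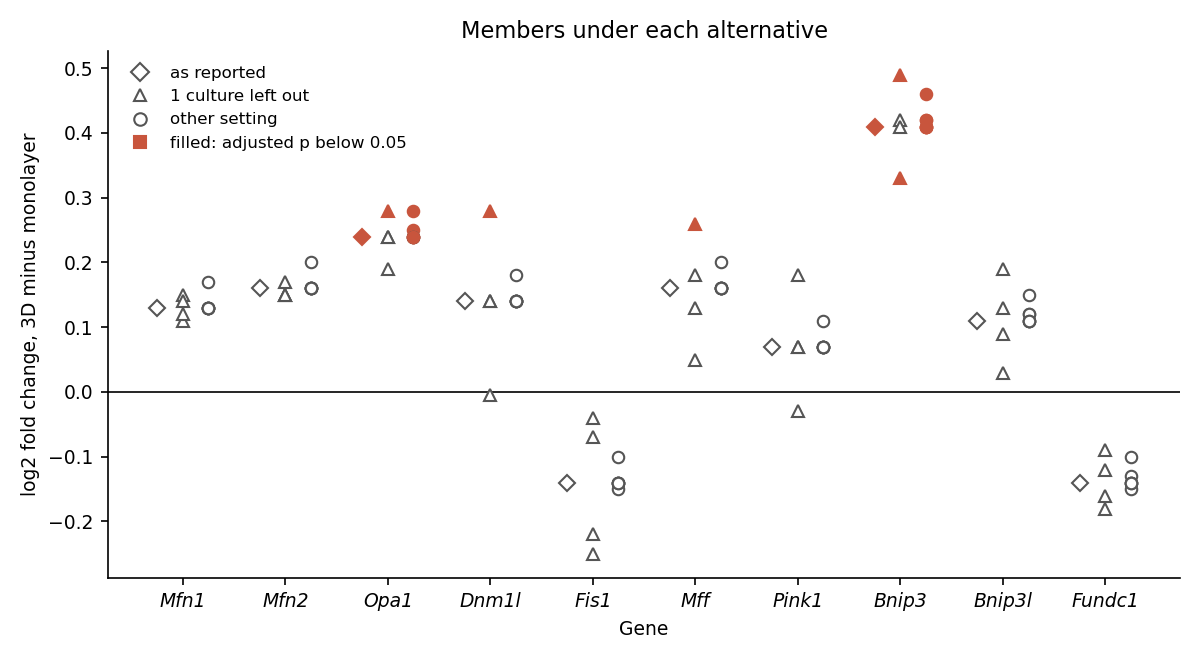
Log2 fold change of each of the 10 genes under the reported setting and under the 11 alternatives, with 1 marker per setting. Bnip3 stays between 0.33 and 0.49 and Opa1 between 0.19 and 0.28, while Dnm1l reaches -0.005 without monolayer replicate 2 and Pink1 -0.03 without bioprinted replicate 2.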

How the data were processed

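RNA of 2 monolayer and 2 3D-bioprinted INS-1 832/3 cultures was compared. The authors deposited 1 table per sample with transcript identifiers, gene symbols and TPM, which per the labels came from Salmon 1.2 after FastQC 0.11.8, with rn4 as the named genome build. The study's own test used estimated counts in DESeq2, which these TPM do not hold, so a test on the log scale was used. TPM were summed per gene symbol, scaled with trimmed means of M values, unweighted (factors 0.96 to 1.02), taken as log2(TPM + 1), and compared with limma 3.58.1 in R 4.3.3 (empirical Bayes with an intensity trend, group as the only term, all 4 samples). Genes whose mean TPM reached 1 entered the fit, and p-values were adjusted by Benjamini-Hochberg over all genes tested. A gene was called at an adjusted p below 0.05. Transcripts were fitted likewise. Fold changes on the log2(TPM + 1) scale understate the change of low genes. TPM keep no depth, so no counting interval was given.

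All 10 genes were named whatever their values. From each functional list the 2 tested genes with the smallest p and the 2 with the highest mean TPM were named, as were Oma1, Mief1, Mief2, Optn and Sqstm1, while some items that this rule names are not reported here. Genes behind small counts (Slc2a2, Ins2, Gcg, Miga1, Tomm7, Htra2, Tomm22, Polg, Hspa9, Ndrg1, Foxo1 and Tfe3), and Hif1a beside Epas1, were named after their values were seen. The genes and lists were chosen with earlier results of these data known. The labels number the replicates 1 and 2 and do not state a pairing between the groups. Deviations from the group means of same-numbered samples correlated at -0.00601 over genes, which with 2 samples per group cannot settle whether they were handled together. The labels call the replicates biological and do not describe separate cultures further, so p-values measure the spread between these samples. Promoter windows of 250 bases came from RefSeq (GRCr8). The fit was tested on simulated data. Python 3.11.15, pandas 2.3.3 and scipy 1.17.1 were used for tables and the exact permutation tests. Alternatives were no scaling, median-ratio scaling, no filter, a minimum mean TPM of 5, a pseudocount of 0.1, no intensity trend, a replicate block, an adjusted p below 0.01, the most abundant transcript per gene for the ratios, and leaving out each sample.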

Additional observations from a re-analysis of the deposited data

How the results depend on the processing

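The 10 genes kept the sign of their difference under every alternative run except for Dnm1l and Pink1 when a single culture was left out. At an adjusted p below 0.01, 1418 genes, 0 of the 10 genes, 11 pathway genes and 0 member transcripts were called, in place of 4542, 2, 37 and 3. Without the intensity trend 1 of the 10 was called, Bnip3, and without the filter 1 member transcript. Leaving out each culture in turn gave 136 to 4507 genes, 0 to 3 of the 10 genes, 3 to 39 pathway genes and 0 to 2 member transcripts. The low ends for genes and pathway genes came without a bioprinted culture, where the remaining one was assumed to vary like the monolayers. The cause was not tested. Across these runs the log2 difference ran from -0.005 to 0.28 for Dnm1l and from -0.03 to 0.18 for Pink1. It ran from -0.06 to 0.15 for Csnk2a1, from -0.03 to 0.21 for Gabpa and from -0.14 to 0.11 for Kif5b, which was 0.03 without scaling. Among transcripts it ran from -0.06 to 0.15 for ENSRNOT00000002482.7 and from -0.08 to 0.28 for ENSRNOT00000002477.8 of Dnm1l, from -0.14 to 0.07 for ENSRNOT00000083471.1 of Fis1 (0.009 without scaling), from -0.02 to 0.06 for ENSRNOT00000077170.1 of Mfn1, and from -0.05 to 0.18 for ENSRNOT00000083474.1 and from -0.03 to 0.18 for ENSRNOT00000065497.2 of Pink1. The within-sample ratios kept their direction in every alternative run, with log2 differences from 0.01 to 0.13 for Mfn2 to Mfn1, from 0.28 to 0.32 for Bnip3 to Bnip3l, from -0.34 to -0.14 for fission to fusion and from 0.12 to 0.35 for the receptors to Pink1. With the replicate number as a block, 4816 genes were called, with Bnip3 (adjusted p = 0.00476) and Opa1 (0.0347) still the only ones of the 10. Among the transcripts and pathway genes the block ended the calls of the minor Mff transcript (adjusted p = 0.067), Mtch2 (0.0568), Tfe3 (0.0526) and 1 of the 8 MICOS genes. Since no pairing by number is stated, this fit is given as an alternative only. Depth limits could not be set, because TPM hold no read counts, and 2 cultures per group leave few degrees of freedom.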
